A study of Rattus norvegicus with 2 samples.

Results

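The type I interferon response genes followed here were Isg15, Rtp4, Bst2, Ifi47, Irf7, Ifit3, Mx1, Oas1a and Ifitm3. They were taken by symbol, and 9 of 9 were found among the 32623 genes of the deposited feature tables. The data came from 2 single-cell RNA sequencing libraries of cells sorted by flow cytometry as microglia, the resident macrophages of the brain, from rat hippocampus. Each library pooled 7 male embryos at gestational day 20. One library came from embryos exposed to dexamethasone, a glucocorticoid drug, and the other from control embryos. The dose, the route and the days of exposure are not given in the sources used here. Each group is a single library without a replicate, so no test was made, and the exposure cannot be told apart from any other difference between the 2 pools or their handling. All intervals are at the 95% level and cover counting error only.

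Type I interferons are secreted cytokines that bind a receptor made of Ifnar1 and Ifnar2 on the cell surface. The receptor acts through the kinases Jak1 and Tyk2 on transcription factors that bind a GAAA repeat, the interferon-stimulated response element, in front of target genes. The proteins of such targets restrict viruses, and microglia are known to respond to interferon in infection, injury and development. Among the 9 genes, Isg15 (ENSRNOG00000021802 in the files) encodes a ubiquitin-like protein that is attached to other proteins. Rtp4 (ENSRNOG00000028895) encodes a receptor-transporting protein induced by interferon, and Bst2 (ENSRNOG00000059900), also called tetherin, holds budding virus at the cell surface. Ifi47 (ENSRNOG00000002470) and Mx1 (ENSRNOG00000001959) encode interferon-inducible GTPases, of the immunity-related and the dynamin-like families. Irf7 (ENSRNOG00000017414) encodes a transcription factor that amplifies interferon production. Ifit3 (ENSRNOG00000022839) and Ifitm3 (ENSRNOG00000015078) encode antiviral proteins of the cytoplasm and of endosomal membranes, and Oas1a (ENSRNOG00000001369) encodes a synthetase of the oligoadenylates that activate RNase L.

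The response element was looked for in the sequence in front of the genes, because interferon signalling is known to act through it. RefSeq promoter windows of the rat assembly GRCr8 were matched by symbol for 7 members, and Isg15 and Rtp4 were not among them. The motif GAAANNGAAA was searched on both strands in the 250 bases before the annotated start, and overlapping matches were counted separately. It was present in 5 of 7 members (71.4%) and in 1140 of 33469 windows of that length in the whole table (3.41%). Bst2 had 2 overlapping matches, at 131 to 122 and 125 to 116 bases before the start, and Oas1a had 2, at 41 to 32 and 35 to 26 bases. Irf7 had 1 match at 69 to 60 bases, and Ifit3 and Ifitm3 had 1 each at 44 to 35 bases. Ifi47 and Mx1 held no match, which says only that these letters are not in those windows. The list of other interferon effectors had it in 25 of 51 windows (49.0%), the interferon-inducible GTPases in 7 of 8 (87.5%) and the interferon receptors in 0 of 6.

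The 5 windows below are shown because they cover both ways in which the members were later found to be spread over cells, with and without a match. Each runs 5′ to 3′ on the gene's strand and ends at the base before the start, and capitals mark the matched bases. Bst2 (chr16:18254968-18255217, minus strand) and Ifi47 (chr10:33798494-33798743, plus strand) were found in a majority of microglia-gated cells. Ifit3 (chr1:241527076-241527325, plus strand), Mx1 (chr11:50294607-50294856, minus strand) and Oas1a (chr12:41330216-41330465, plus strand) were found in few. The counts themselves were made on an older assembly, Rnor_6.0, so these positions do not belong to the count tables.
Bst2: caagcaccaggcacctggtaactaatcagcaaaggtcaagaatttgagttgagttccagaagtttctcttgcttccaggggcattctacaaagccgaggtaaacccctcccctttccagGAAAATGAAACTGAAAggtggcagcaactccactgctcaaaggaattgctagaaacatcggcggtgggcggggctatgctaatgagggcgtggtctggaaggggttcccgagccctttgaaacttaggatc
Ifi47: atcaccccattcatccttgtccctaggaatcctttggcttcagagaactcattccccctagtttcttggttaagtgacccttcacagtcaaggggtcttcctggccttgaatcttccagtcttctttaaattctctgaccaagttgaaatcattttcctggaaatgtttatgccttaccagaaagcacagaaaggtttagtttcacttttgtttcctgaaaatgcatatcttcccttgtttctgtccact
Ifit3: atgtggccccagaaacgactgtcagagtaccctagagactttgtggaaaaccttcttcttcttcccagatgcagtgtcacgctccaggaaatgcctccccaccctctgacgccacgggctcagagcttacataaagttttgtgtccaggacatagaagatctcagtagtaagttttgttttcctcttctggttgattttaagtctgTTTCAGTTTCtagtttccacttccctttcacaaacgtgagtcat
Mx1: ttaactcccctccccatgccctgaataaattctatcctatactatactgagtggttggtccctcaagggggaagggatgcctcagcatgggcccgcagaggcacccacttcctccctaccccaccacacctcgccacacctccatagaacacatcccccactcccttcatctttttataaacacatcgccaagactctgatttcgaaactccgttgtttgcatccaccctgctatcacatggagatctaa
Oas1a: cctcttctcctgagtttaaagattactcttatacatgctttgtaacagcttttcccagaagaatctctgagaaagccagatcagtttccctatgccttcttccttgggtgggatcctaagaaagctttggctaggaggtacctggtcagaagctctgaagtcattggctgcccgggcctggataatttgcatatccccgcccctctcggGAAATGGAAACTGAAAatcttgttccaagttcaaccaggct

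The dexamethasone library held 4328 barcodes with 42611920 unique molecular identifiers (UMIs, counts of distinct captured transcripts), and the control library 8342 barcodes with 69940778. The libraries shared 5 barcodes. After filters on genes (200 or more) and mitochondrial UMIs (20% or less), 4199 and 8044 cells remained and were placed in a class by marker genes. Microglia-gated cells made up 77.9% of kept dexamethasone cells (3273) and 75.4% of kept control cells (6066). Border-associated macrophages, which line the brain's surfaces and vessels, followed with 534 and 1134 cells, and the sort also held neuron-gated (76 and 294), erythroid-gated (93 and 120) and granulocyte- or monocyte-gated cells (46 and 33). The border between microglia and border-associated macrophages was not sharp, since 8.85% and 7.63% of the macrophages lay close to the dividing ratio. Median marker levels of the microglia gate were 43.6 and 47.8 UMIs per 10000 for the microglial list and 0 in both libraries for the neuronal list. The median depth of these cells was 8852 UMIs (dexamethasone) and 7774 UMIs (control), and their median mitochondrial share was 3.02% and 5.98%. The part of depth or mitochondrial share in the results was not tested.

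The UMIs of the 9 genes lay almost wholly in macrophages. Microglia-gated cells held 78.5% of the summed member UMIs of the dexamethasone library and 77.3% of those of the control library, close to their 76.9% share of all UMIs in each. Border-associated macrophages held 18.0% and 20.6%, against 13.2% and 14.4% of all UMIs. Neuron- and erythroid-gated cells give the background from free RNA. After thinning to 4100 UMIs per cell, a member UMI was found in 1 of 45 and 5 of 107 neuron-gated cells, and in 2 of 91 and 3 of 119 erythroid-gated cells, of the dexamethasone and control libraries. In thinned microglia-gated cells the share was 80.4% (79.0 to 81.8) of 3101 and 79.9% (78.8 to 80.9) of 5470, with 172 and 596 shallower cells left out, and 92.5% and 91.0% before thinning.

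Bst2 was higher in border-associated macrophages than in microglia in both libraries, at 426 against 311 CPM (UMIs of a gene scaled to all UMIs of the same cells) in the dexamethasone library and 478 against 318 CPM in the control library. Ifi47 followed the same order by gate, with 129 CPM in border-associated macrophages of each library and 104 and 98.3 CPM in microglia. The order was not uniform over the clusters described below. In border-macrophage clusters 5, 8 and 11, Bst2 was at 476, 191 and 341 CPM in dexamethasone and 649, 220 and 291 CPM in control. Ifi47 was there at 161, 78.0 and 186 CPM, and at 162, 66.8 and 177 CPM. In microglia clusters Ifi47 ran from 49.0 and 52.2 CPM (cluster 3) to 156 and 146 CPM (cluster 4). Granulocyte- or monocyte-gated cells had less Bst2 than both macrophage gates, 211 CPM (173 to 254) in dexamethasone and 141 CPM (102 to 190) in control. Their 46 and 33 cells stood out in Oas1a, at 58.8 CPM (39.96 to 83.47) and 59.0 CPM (35.0 to 93.3), against 1.69 and 1.96 CPM in microglia. These cells, 1.10% and 0.41% of those kept, held 28.7% and 11.1% of all Oas1a UMIs. Oas1a belongs to a family of near-identical rat genes, so the split of its reads among copies is uncertain. Ifit3 was also highest there, at 13.3 CPM (7 UMIs) and 29.5 CPM (9 UMIs), though 1 control cell of 1802 UMIs held 7 of those 9 Ifit3 UMIs and 8 of the 18 Oas1a UMIs, while Rtp4 had 1 and 0 UMIs. Ifitm3 had 0 in both, where a count of 3 UMIs would be 5.69 and 9.84 CPM.

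**Figure D1:**
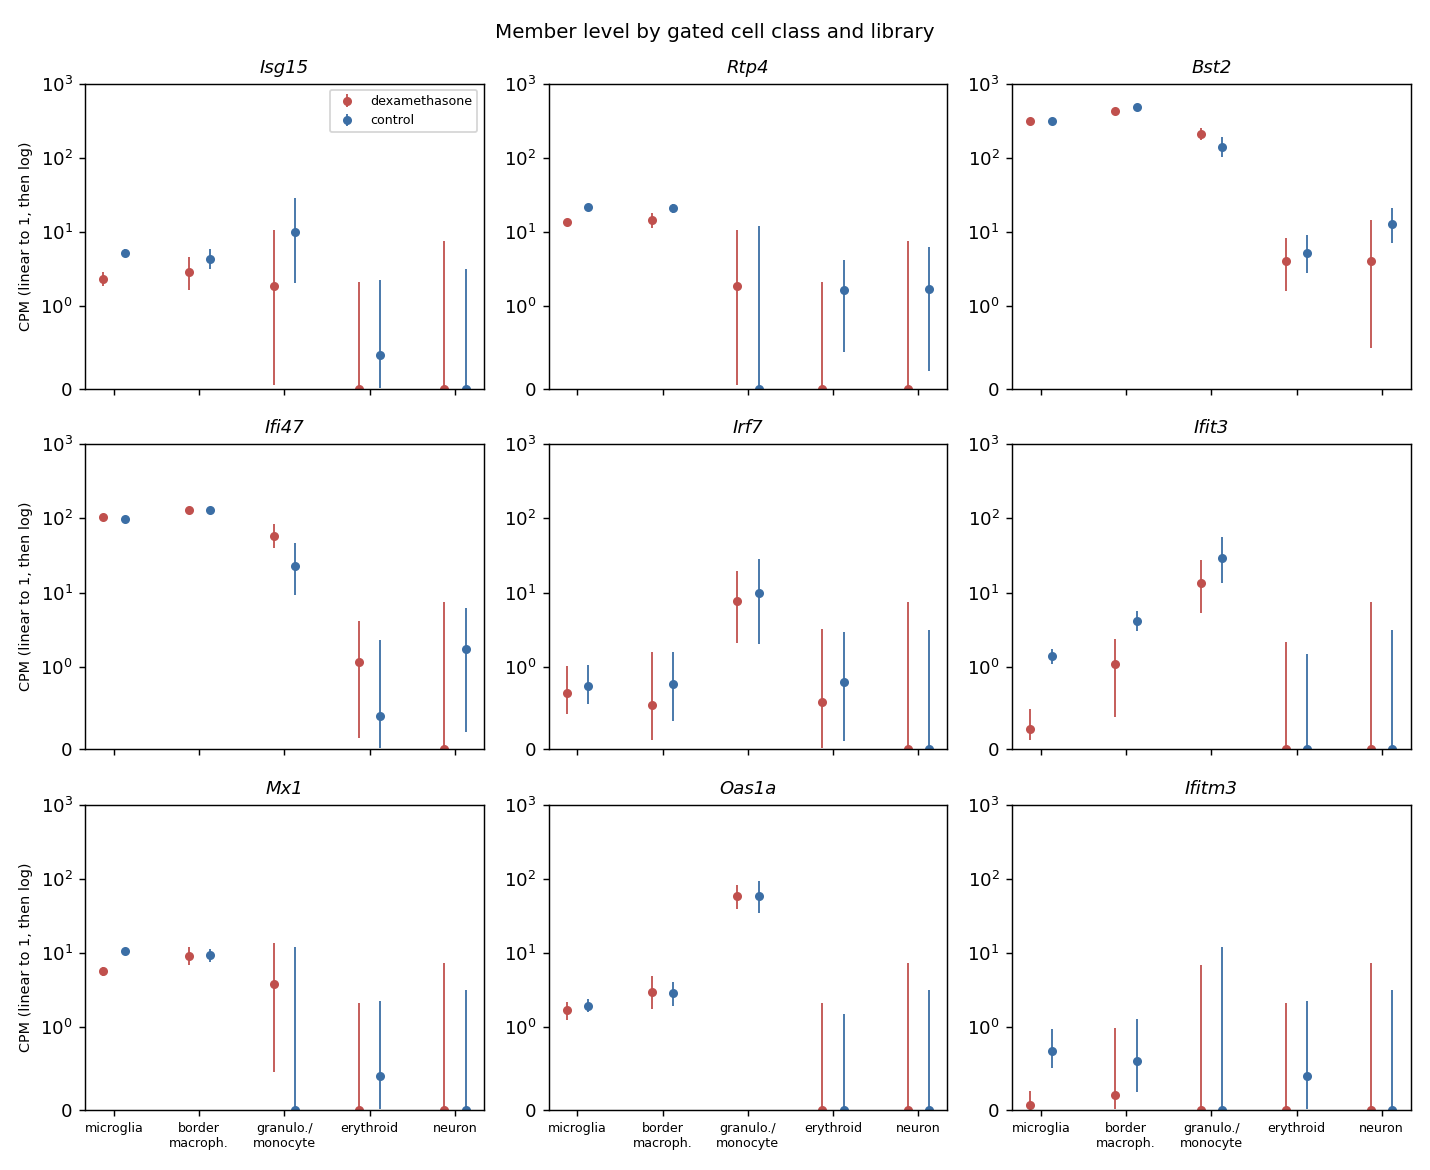
Level of each of the 9 genes (CPM, on an axis that is linear up to 1 and logarithmic above) in 5 gated cell classes, with 1 point per library and bars for the exact 95% Poisson interval, which covers counting error only. Bst2 and Ifi47 sat near or above 100 CPM in both macrophage classes of both libraries, Oas1a was near 59 CPM in granulocyte- or monocyte-gated cells alone, and the other genes lay lower.

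The members differed widely in how their UMIs were spread over microglia. Bst2 was found in 2816 of 3273 dexamethasone cells (86.0%) and 5113 of 6066 control cells (84.3%). Ifi47 was found in 55.5% and 50.3% of them. Rtp4 was next, in 384 cells (11.7%) and 999 cells (16.5%). Mx1 was found in 124 and 289 cells, Isg15 in 63 and 144, Oas1a in 50 and 91, Irf7 in 19 and 31, Ifit3 in 4 and 23, and Ifitm3 in 2 and 11. UMI totals are not scaled by transcript length or capture, so this order is one of detection and not of transcript number.

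The spread was measured as the share of a gene's UMIs held by the 1% of microglia-gated cells with most of them, 33 dexamethasone and 61 control cells, and set beside the share that an even Poisson spread at the same mean would give. For Bst2 the share was 5.34% in the dexamethasone and 5.397% in the control library, against 2.80% and 2.91% with an even spread. Ifi47 gave 6.28% and 7.63%, against 4.35% and 4.88%. Rtp4 was closer to an even spread, at 17.2% against 13.9% and 13.5% against 10.9%, and no microglia-gated cell held more than 4 or 6 of its UMIs. The UMIs of these 3 genes thus came from many cells.

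A large part of the UMIs of Mx1, and of Isg15 in the control library, lay in few cells. The top 1% held 51.1% of Mx1 UMIs in the dexamethasone and 59.9% in the control library, against 20.4% and 15.2% with an even spread. For Isg15 the values were 60.5% and 70.6%, against 44.2% and 23.8%. A single control cell carried 42 Isg15 UMIs and another carried 51 Mx1 UMIs, while the highest dexamethasone cells carried 7 and 19. The control maxima were taken over 6066 cells and the dexamethasone maxima over 3273, so they are not on equal terms. In dexamethasone microglia 56 of the 63 Isg15 carriers had 1 UMI and 2 had 3 or more. Ifit3 and Ifitm3 were more concentrated still, with 70.7% of 75 control Ifit3 UMIs and 84.2% of 38 control Ifitm3 UMIs in 5 cells. Their 8 and 2 UMIs in dexamethasone microglia are too few to describe a spread. Oas1a, at 69.1% and 71.4% against 60.3% and 58.6%, and Irf7, with at most 3 and 4 UMIs in a cell, lay nearer to an even spread of rare UMIs.

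The same contrast was looked for at equal depth, after thinning to 4100 UMIs per cell. The variance of the thinned counts over their mean, which is 1 for an even Poisson spread, was 1.12 and 1.06 for Rtp4, 1.26 and 1.41 for Bst2 and 1.18 and 1.14 for Ifi47 in dexamethasone and control. It was 1.84 and 4.42 for Mx1, and 1.21 and 2.98 for Isg15. At that depth Mx1 stood apart from the widely found genes in both libraries, and Isg15 in the control library only.

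**Figure D2:**
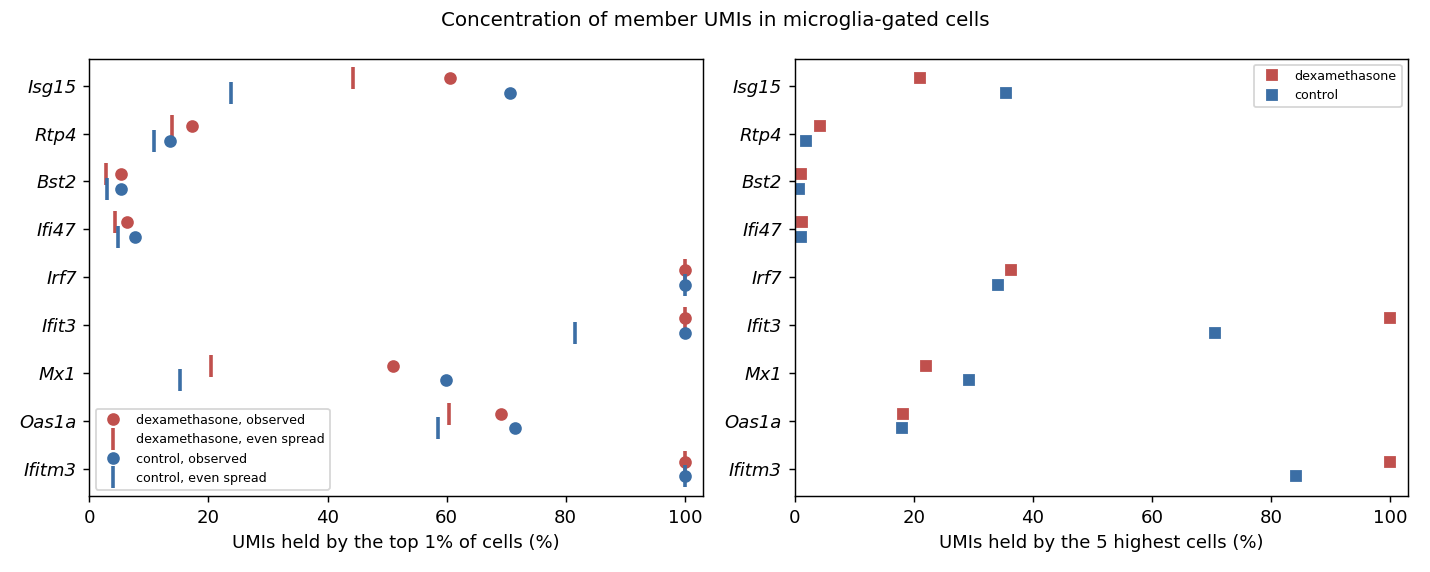
Left, share (%) of each gene's UMIs held by the top 1% of microglia-gated cells (points), beside the share that an even Poisson spread gives (vertical ticks). Right, share (%) held by the 5 highest cells, with dexamethasone in red and control in blue. Mx1 in both libraries and Isg15 in the control library lie far to the right of their ticks, dexamethasone Isg15 lies at 60.5 against 44.2, and a share of 100 for Irf7, Ifit3 and Ifitm3 only says that fewer than 1% of cells carried a UMI.

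The strongest control cells carried several of the concentrated genes at once, and the strongest dexamethasone cells did so in part. The 7 members other than Bst2 and Ifi47 were summed per cell, a choice made after the data were seen because those 2 genes held most of the UMIs. Cells were ranked among 8044 kept control and 4199 kept dexamethasone cells, so equal ranks stand for unequal shares of cells. The strongest control cell, a microglia-gated cell of 20845 UMIs, held 42 Isg15, 34 Mx1, 14 Ifitm3, 5 Ifit3, 4 Rtp4, 4 Oas1a and 2 Irf7 UMIs, 105 in all from 7 of 7 genes. The next held 89, of which 32 were Ifit3 and 26 Mx1, and the cell after it, a border-associated macrophage, held 70, of which 33 were Ifit3. The fourth held 66 and was unlike them, with 51 Mx1 and 0 Ifit3. In these 4 cells Bst2 counted 15, 5, 7 and 11 UMIs, and Ifi47 0, 6, 5 and 1, well within what other macrophages carried. The strongest dexamethasone cell, microglia-gated with 11462 UMIs, held 37, of which 19 were Mx1, 7 Isg15 and 5 Ifit3. Behind it came a cell of no class with 27, a border-associated macrophage with 16 and then cells with 11 or fewer. The dexamethasone cells of rank 6, 7 and 11 carried only 1 of the 7 genes, with 9 Oas1a, 9 Mx1 and 6 Mx1 UMIs.

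**Figure D3:**
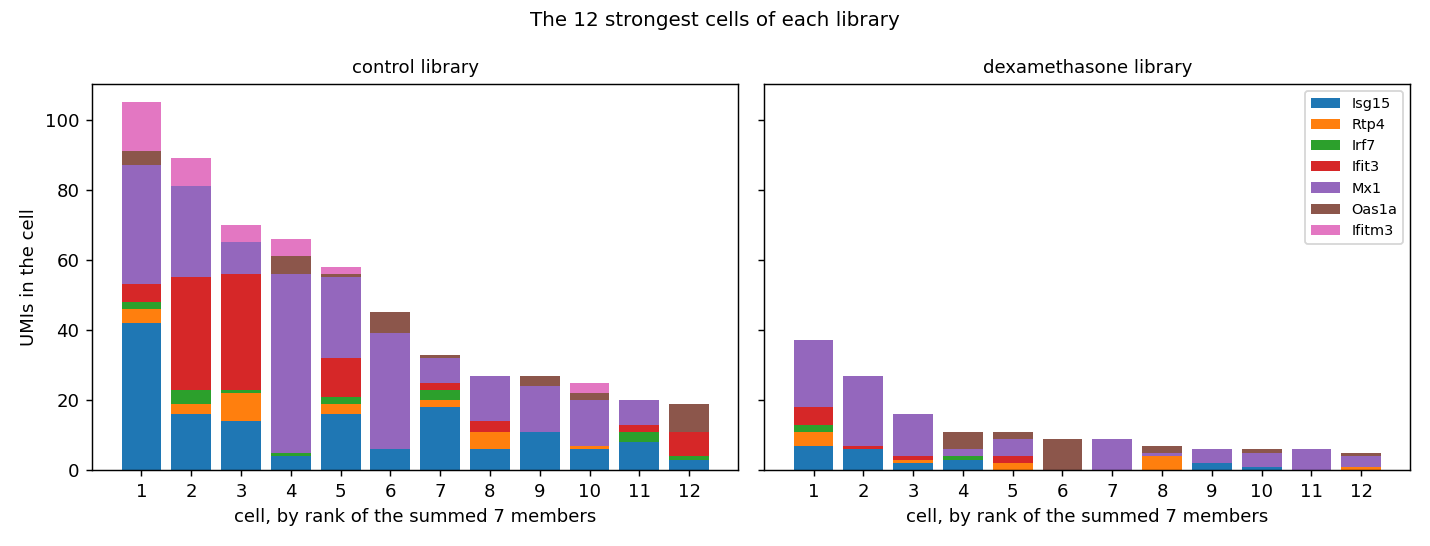
UMIs of the 7 members other than Bst2 and Ifi47 in the 12 strongest cells of each library, of any class, stacked by gene, with cells ranked by the sum. The 3 strongest control cells reach 105, 89 and 70 UMIs with 6 or 7 genes each, and the strongest dexamethasone cell reaches 37. The ranks are over 8044 control and 4199 dexamethasone cells.

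Across all thinned microglia-gated cells the same genes met more often than independent carriers would. Among the 15 pairs of Isg15, Irf7, Ifit3, Mx1, Oas1a and Ifitm3, both genes of a pair were found together 72 times in control cells, against 4.66 if carriers were independent, and 15 of 15 pairs lay above that number. In dexamethasone cells the pairs met 11 times against 1.37, and 8 of the 10 pairs without Ifitm3 lay above; Ifitm3 had no UMI in thinned dexamethasone cells, so its pairs could not. Rtp4 met another of the 7 genes 53 times against 24.6 in control and 13 times against 6.57 in dexamethasone. Bst2 and Ifi47 met 1.03 (control) and 1.02 (dexamethasone) times as often as independence gives. All these pairs share cells and libraries, so they are a description and not independent counts.

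Microglia-gated cells with UMIs of at least 2 of the 7 genes numbered 52 of 3273 (1.59%) in dexamethasone and 178 of 6066 (2.93%) in control, a log2 ratio of shares of -0.89 (-1.36 to -0.43). Cells with at least 3 numbered 7 (0.21%) and 30 (0.49%), with a ratio of -1.21 (-2.64 to 0.0069), so the direction of that difference is not determined by the counts. After thinning, cells with at least 2 numbered 13 of 3101 (0.42%) and 51 of 5470 (0.93%), a ratio of -1.15 (-2.16 to -0.25).

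Between the libraries, Bst2 and Ifi47 in microglia were at a like level. Isg15, Mx1, Rtp4, Ifit3 and Ifitm3 were lower in the dexamethasone library, for Ifit3 and Ifitm3 on the UMIs of few cells. The counts of Oas1a and Irf7 left the direction undetermined. Bst2 stood at 310.7 CPM (10100 UMIs) in the dexamethasone and 318.0 CPM (17008 UMIs) in the control library, a log2 ratio of -0.03 (-0.07 to 0.0019). Ifi47 stood at 104 CPM (3391 UMIs) and 98.3 CPM (5257 UMIs), a ratio of 0.09 (0.02 to 0.15). Both genes were thus near equality, and as they held most UMIs the sum over the 9 genes was close to it too, at 439 and 459 CPM (-0.06, -0.09 to -0.03).

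Isg15 stood at 2.34 CPM (76 UMIs) against 5.27 CPM (282 UMIs), a log2 ratio of -1.17 (-1.56 to -0.80). Mx1 stood at 5.72 CPM (186 UMIs) against 10.6 CPM (569 UMIs), a ratio of -0.89 (-1.14 to -0.65). Rtp4 stood at 13.8 CPM (447 UMIs) against 22.0 CPM (1177 UMIs), a ratio of -0.68 (-0.84 to -0.52). The ratio interval of each of these 3 genes lay below 0. Of the 10550 genes with at least 100 UMIs in these cells, it lay below 0 in 2674 and above 0 in 2417. Ifit3 had 8 UMIs against 75 (0.25 and 1.40 CPM), a ratio of -2.51 (-3.77 to -1.46), and Ifitm3 2 against 38 (0.06 and 0.71 CPM), a ratio of -3.53 (-6.63 to -1.58). The wide intervals of these last 2 come from the few UMIs on the dexamethasone side. On the control side 5 cells held 53 of the 75 Ifit3 and 32 of the 38 Ifitm3 UMIs. Carriers were 4 dexamethasone and 23 control cells for Ifit3, and 2 and 11 for Ifitm3. The intervals count UMIs of 1 cell as independent, so they understate the spread where few cells hold many UMIs. Oas1a at 1.69 and 1.96 CPM (-0.21, -0.71 to 0.27) and Irf7 at 0.68 and 0.77 CPM (-0.18, -0.998 to 0.601) were compatible with no difference and with one of either sign.

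Of the 6 members with at least 100 UMIs over both libraries, 3 were lower by at least 0.5 on the log2 scale (Isg15, Mx1 and Rtp4) and 0 were higher by as much. Of the 10550 genes with that many UMIs in microglia-gated cells, 3.42% were lower and 3.75% higher by at least 0.5. In any size, 5 of the 6 members and 51.4% of those genes were lower. The median ratio was -0.45 over the 6 members and -0.68 over all 9, beside -0.01 over all genes. Summed over the 7 members other than Bst2 and Ifi47 the level was 24.5 CPM (796 UMIs) in the dexamethasone and 42.8 CPM (2287 UMIs) in the control library, a log2 ratio of -0.80 (-0.92 to -0.69). Rtp4 made up 45.2% of that difference in CPM, Mx1 26.9%, Isg15 16.1%, Ifit3 6.33%, Ifitm3 3.55%, Oas1a 1.49% and Irf7 0.49%.

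The share of microglia carrying the broader of these genes also differed at equal depth. After thinning to 4100 UMIs, Rtp4 was found in 5.87% (5.07 to 6.75) of dexamethasone and 8.96% (8.21 to 9.75) of control cells, and any of the 7 genes in 8.93% (7.95 to 9.99) and 12.6% (11.7 to 13.5). Before thinning these were 11.7% and 16.5%, and 17.8% and 22.3%. For Bst2 the thinned shares were 68.9% and 68.6%, and for Ifi47 33.3% and 31.4%.

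The difference was then taken without the top 1% of microglia-gated cells of each library by the sum of all 9 genes, 33 cells with 17 to 43 member UMIs and 61 cells with 16 to 120. These cells were deep, with a median of 21855 UMIs against 8788 in the other dexamethasone cells and 18151 against 7735 in the other control cells. They held 46.8% of control Isg15 UMIs, 42.4% of Mx1, 74.7% of Ifit3 and 84.2% of Ifitm3, but 5.18% of Rtp4 and 4.86% of Bst2. On the dexamethasone side they held 18.4% of Isg15, 18.3% of Mx1 and 4.70% of Rtp4.

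Without them Rtp4 stayed at a log2 ratio of -0.67 (-0.84 to -0.51), Bst2 at -0.03 and Ifi47 at 0.10. Isg15 moved from -1.17 to -0.56 (-1.01 to -0.12), with 1.95 CPM in dexamethasone and 2.87 CPM in control. Mx1 moved from -0.89 to -0.39 (-0.68 to -0.11), with 4.78 against 6.28 CPM. Ifit3 stood at -1.95 (-4.34 to -0.18) on 3 and 19 UMIs, and Ifitm3 at -0.87 (-4.21 to 1.62) on 2 and 6. Irf7 turned from -0.18 to 0.43 with an interval of -0.56 to 1.39, and Oas1a was at -0.07. The 9 genes together stood at -0.04 (-0.07 to -0.01) and the 7 at -0.56 (-0.69 to -0.43).

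Since Bst2 and Ifi47 held most of the summed UMIs, the top 1% was also chosen by the 7 genes, as a step added after seeing the data. Those cells held 58.2% of control Isg15 UMIs, 51.0% of Mx1 and 9.43% of Rtp4, and had a median of 10430 UMIs in dexamethasone and 11868 in control against 8838.5 and 7744 in the rest. Without them Isg15 was at -0.31 (-0.79 to 0.16), Mx1 at -0.56 (-0.89 to -0.24), Rtp4 at -0.72 (-0.89 to -0.55), Ifit3 at -1.79 (-4.20 to 0.0034) and the 7 genes together at -0.61 (-0.75 to -0.48). For Isg15 the interval then included equality, while for Rtp4 the ratio was as large as with every cell. With the top 1% chosen by each gene itself, Isg15 was at -0.75 (-1.40 to -0.13), Mx1 at -0.61 (-0.98 to -0.25) and Rtp4 at -0.75 (-0.92 to -0.57). For Isg15 this cut fell among the 56 dexamethasone and 119 control cells with 1 UMI. It took out single carriers as well as strong cells and left 30 and 83 UMIs. That Isg15 value therefore does not describe the removal of strong cells alone. The size of the Isg15 ratio, and whether its interval held equality, thus depended on whether the 9 or the 7 genes chose the top cells.

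**Figure D4:**
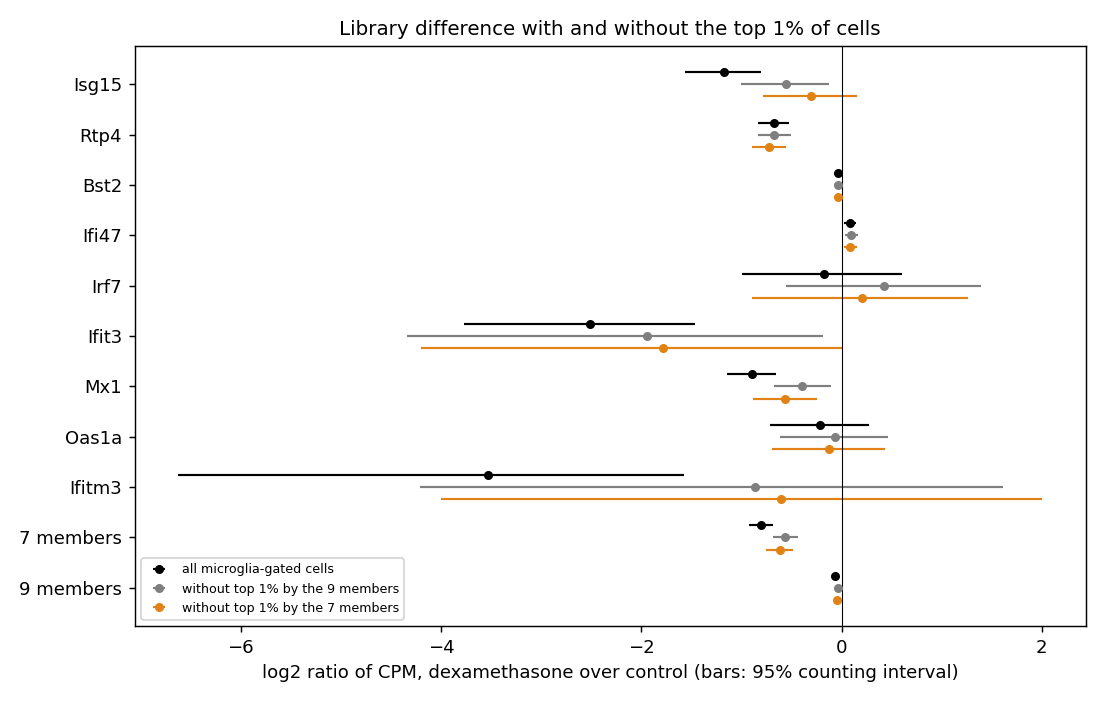
Log2 ratio of CPM in microglia-gated cells, dexamethasone over control, for each gene and for the sums of 7 and of 9 genes, with every cell (black), without the top 1% by the 9 genes (grey) and without the top 1% by the 7 genes (orange); bars are 95% counting intervals. Rtp4 stays near -0.7 in all 3, Isg15 moves from -1.17 to -0.56 and -0.31, and Bst2 and Ifi47 stay within 0.11 of 0.

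The libraries held different mixtures of microglial clusters, so the ratio was also taken within each of the 6 microglia clusters of a clustering made without the interferon genes, a split added after the data were seen. Cluster 0 held 316 dexamethasone and 2047 control cells, and cluster 1 held 1032 and 942. Rtp4 was lower in dexamethasone in 6 of 6 clusters, from -1.31 (-1.87 to -0.78) in cluster 3 to -0.17 (-0.66 to 0.30) in cluster 6. In the large clusters 0 and 1 it was at 15.5 against 24.9 CPM (-0.69) and 15.8 against 24.1 CPM (-0.61). Mx1 was lower in 5 of 6, from -3.08 in cluster 3 to -0.38 in cluster 0, and higher in cluster 6, at 10.6 CPM (40 UMIs) against 4.53 CPM (32 UMIs), a ratio of 1.23 (0.52 to 1.94). Isg15 was lower in clusters 1 to 4, from -2.29 in cluster 3 to -1.13 in cluster 4, had 0 against 38 UMIs in cluster 0, and was at 0.44 (-0.72 to 1.55) in cluster 6. The 7 genes together were lower in 5 of 6 clusters, from -2.04 (-2.43 to -1.67) in cluster 3 to -0.75 in cluster 0. In cluster 6 they stood at 31.5 against 24.9 CPM, a ratio of 0.34 (-0.0076 to 0.684). Bst2 lay between -0.13 and 0.15 in the 6 clusters, and Ifi47 between -0.09 and 0.21. Cluster 3 included the 3 strongest control cells, since each carried more Ifit3 or Ifitm3 UMIs than any other cluster held. These cells held 105, 89 and 70 of its 459 control UMIs of the 7 genes. Of its 88 control Isg15 UMIs they held 42, 16 and 14, and of its 83 Mx1 UMIs 34, 26 and 9. The cell with 70 was gated as a border-associated macrophage. Ratios of cluster 3 without these cells were not taken.

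Outside microglia, Rtp4 was also lower in border-associated macrophages, at 14.3 CPM (80 UMIs) against 21.0 CPM (211 UMIs), a log2 ratio of -0.55 (-0.94 to -0.18). Ifit3 there had 6 against 42 UMIs (-1.96, -3.49 to -0.72), 33 of the 42 in 1 cell. Isg15 had 16 against 44 UMIs (-0.62, -1.54 to 0.24). For Mx1 the counts left the direction undetermined, at 9.30 CPM (52 UMIs) against 9.36 CPM (94 UMIs) and a ratio of -0.01 (-0.53 to 0.49). The largest border-macrophage cluster, cluster 5 with 400 dexamethasone and 595 control cells, gave other values. There Mx1 was at 17.11 against 10.04 CPM (0.77, 0.19 to 1.36), Rtp4 at 20.6 against 27.3 CPM (-0.40, -0.84 to 0.02), Bst2 at 476 against 649 CPM (-0.45, -0.54 to -0.36) and the 7 genes at 0.15 (-0.16 to 0.46). The libraries filled these clusters unequally, with 13 and 147 cells in cluster 11. Whether the ratios of microglia and of border-associated macrophages differ from each other was not tested. Over every kept cell the 7 genes were at -0.69 (-0.79 to -0.59), Mx1 at -0.65 and Oas1a at 0.13.

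Other genes of the pathway were read in the same microglia-gated cells, from lists of ligands, receptors, signalling genes, sensors, effectors and regulators. None of the 11 interferon ligands reached 20 UMIs over both libraries, and Ifnb1, the gene of interferon beta, had 2 UMIs in dexamethasone and 0 in control. Of 5 receptors with at least 100 UMIs, 0 passed 0.5 in either direction, and the median ratio was -0.04. Both chains of the type I receptor were near equality, with Ifnar1, added for its role, at 53.9 against 52.3 CPM (0.04) and Ifnar2 at 40.6 against 39.0 CPM (0.06). Ifngr1, which binds interferon gamma, was at 1058 against 1443 CPM (-0.45, -0.47 to -0.43), and its partner Ifngr2 at 170 against 175 CPM (-0.04).

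Among 9 signalling genes 1 was higher by at least 0.5, as were 3.75% of all genes. This was Tyk2, at 22.6 against 15.9 CPM (0.51, 0.36 to 0.65). Jak1 was at 139 against 182 CPM (-0.39, -0.44 to -0.34) and the phosphatase gene Ptpn6 at 279 against 297 CPM (-0.09). The transcription factor genes Stat2, at 33.8 against 34.5 CPM (-0.03), and Irf9, at 16.9 against 19.1 CPM (-0.17), were named for their role after their values were seen. Of 19 nucleic acid sensors and interferon regulatory factors 15 were lower, beside 51.4% of all genes, with a median of -0.11. The ratio interval lay below 0 in 6 of the 19 and above 0 in 4, beside 2674 and 2417 of all 10550 genes. Tlr3, a sensor of double-stranded RNA, was at 59.1 against 71.2 CPM (-0.27), Tlr7, a sensor of single-stranded RNA, at 81.4 against 84.8 (-0.06), Irf1 at 50.9 against 59.9 (-0.23) and Irf8 at 125 against 119 (0.08). The 1 gene of this list lower by at least 0.5 was Trex1, a DNA exonuclease, at 11.5 against 18.1 CPM (-0.66). It was named after its values were seen, and 3.42% of all genes were lower by at least 0.5.

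Of 45 other interferon effectors 35 were lower and 10 higher, with a median of -0.21, and 4 were lower and 2 higher by at least 0.5, beside 51.4% of all genes lower in any size and 3.42% lower and 3.75% higher by that much. Psme1, a proteasome activator, was at 755 against 789 CPM (-0.06), Epsti1 at 329 against 388 (-0.24) and Lgals3bp at 30.2 against 40.4 (-0.42). Plac8 went the other way, at 313 against 167 CPM (0.91, 0.87 to 0.95). The remaining genes past 0.5, named after their values were seen, were Ifitm1 (-1.11), Mx2 (-0.55), Ifit2 (-0.54), Sp100 (-0.50) and Tap2 (2.11, on 184 and 70 UMIs). Interferon-inducible GTPases were lower in 5 of 5, with a median of -0.39, among them Gbp2 at 40.7 against 53.2 CPM (-0.39) and Igtp at 34.5 against 49.7 CPM (-0.53). Negative regulators were lower in 6 of 6 with a median of -0.11, with Trafd1 at 62.0 against 65.3 CPM (-0.08) and Pias1 at 30.1 against 33.1 CPM (-0.14). The 1 of them past 0.5, Socs1, a target that feeds back on the receptor, was at 1.38 against 2.34 CPM (-0.76), and was also named after its values were seen.

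**Figure D5:**
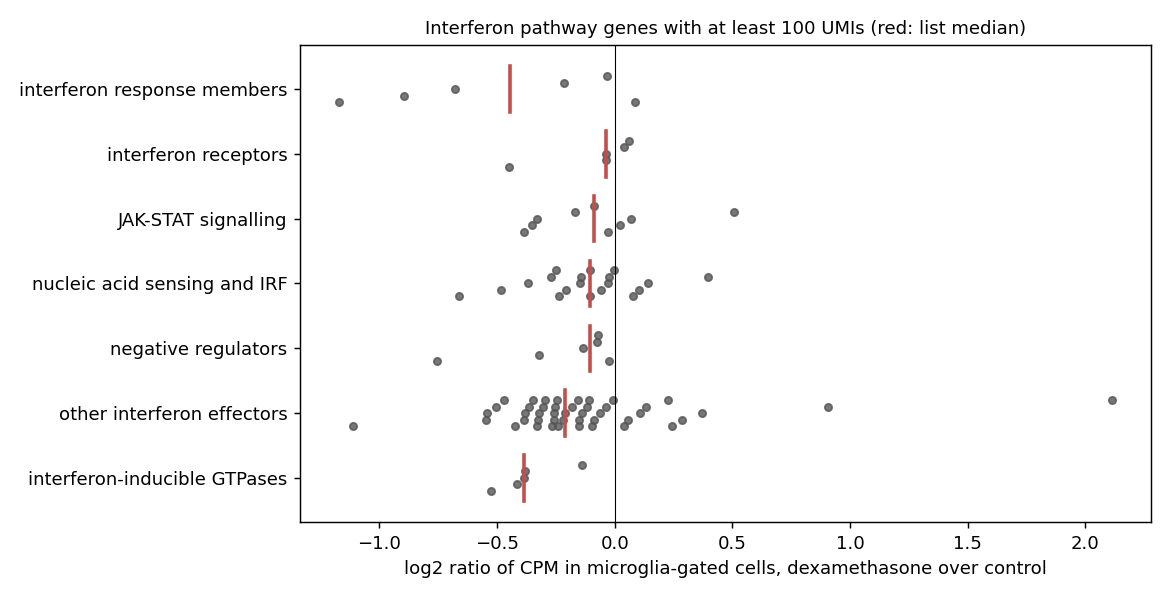
Log2 ratio of CPM in microglia-gated cells, dexamethasone over control, for each gene with at least 100 UMIs in the 9 members and 6 other pathway lists (points), with the median of each list as a red bar. Receptors lie around -0.04, effectors around -0.21 with Tap2 at 2.11 and Plac8 at 0.91, and the 6 members around -0.45.

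The genes most like the members were those most enriched in the top 1% of microglia-gated cells over the rest in both libraries. By the sum of all 9 genes, 12 of 6416 eligible genes were named, led by RT1-Da, RT1-Bb, RT1-Ba, RT1-Db1 and Cd74, genes of class II antigen presentation, followed by Mx2, Cmpk2, Ramp1, Crip1, Slfn4, Ly6e and S100a10. Cd74 was at 535 against 11.3 CPM in dexamethasone and 385 against 31.8 CPM in control. This came from few cells, since 14 dexamethasone and 45 control microglia-gated cells had at least 5 Cd74 UMIs, and 3 and 7 of them were in the top 1%. Of the microglial genes, P2ry12 in those 14 and 45 cells was at 83.7 against 180 CPM and 84.8 against 225 CPM in the remaining cells of dexamethasone and control, and Sall1 at 135 against 197 and 113 against 208. Tmem119 did not follow them, at 65.1 against 74.0 CPM in dexamethasone and 113 against 90.7 CPM in control. Csf1r was at 1599 against 1775 CPM and 1334 against 1651 CPM. Crip1 was higher in the Cd74-rich cells, at 195 against 34.7 CPM in dexamethasone and 961 against 17.9 CPM in control. S100a10 was at 195 against 33.7 CPM and 730 against 16.6 CPM. Flt3, from the dendritic cell marker list, was at 0 against 0.34 CPM in dexamethasone and 12.9 against 0.34 CPM in control. In the top 1%, the 3 and 7 Cd74-rich cells were at 6162 and 3737 CPM of Cd74. The other 30 and 54 top cells were at 5.96 and 0 CPM, below the cells outside the top 1%. The Cd74 enrichment thus lay in the Cd74-rich cells. In the other top cells Crip1 was at 200 and 28.4 CPM, against 31.3 and 23.2 CPM outside. S100a10 was at 115 and 34.8 CPM, against 32.2 and 22.0 CPM. For the other named genes the part of the Cd74-rich cells was not tested. Without those cells the ratio of the 7 genes was -0.80 as before.

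Chosen by the 7 genes, the top 1% was led by Mx2, a relative of Mx1, at 42.7 against 1.37 CPM in dexamethasone and 90.5 against 1.52 CPM in control. Slfn4, Oas1f, Ifit2, Ly6e, Slfn5 and Ifi27l2b followed among 12 genes, with RT1-Db1, Cd74, RT1-Da, RT1-Ba and the locus AABR07018078.1. The Cd74 UMIs came from 1 dexamethasone and 3 control cells, while the other 32 and 58 top cells were at 0 CPM. Whether the RT1 genes came from the same cells was not tested. Ifit2 was at 40.3 against 4.77 CPM and 173 against 5.22 CPM. The summed level of the other effectors was above the rest by 0.70 (0.63 to 0.76) in dexamethasone and 0.76 (0.71 to 0.80) in control on the log2 scale, and that of the GTPases by 0.60 (0.26 to 0.92) and 1.01 (0.83 to 1.19). Sensors and regulatory factors followed with 0.35 (0.20 to 0.50) and 0.24 (0.12 to 0.35), negative regulators with 0.25 (-0.12 to 0.60) and 0.40 (0.15 to 0.64), and JAK-STAT genes with 0.28 (0.12 to 0.43) and 0.13 (0.02 to 0.24). Interferon receptors were at 0.06 (-0.06 to 0.17) and -0.12 (-0.20 to -0.04), and P2ry12 was at 152 against 179 and 202 against 224 CPM. The cycling gene Mki67 was higher in the same cells, at 418 against 256 and 488 against 315 CPM, and without cells carrying cycling genes the ratio of the 7 genes was -1.04. By correlation over thinned cells no gene reached the minimum of 0.2 with the summed members, so none is named.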

How the data were processed

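Microglia sorted from embryonic rat hippocampus were profiled in 1 dexamethasone and 1 control library. The deposited matrices hold raw UMI counts per gene and barcode, made by the authors with Cell Ranger 7.0.0 on Rnor_6.0, per the submitters' processing notes; no filter beyond that is given in the sources used here. From these, cells were kept from 200 genes upward and up to 20% mitochondrial UMIs. Classes came from summed marker UMIs per 10000: at least 10 for microglia, 100 for erythroid cells, 40 for radial glia or choroid cells and 20 for others; microglia whose border-macrophage markers, without F13a1, reached the microglial markers (ratio of at least 1) were called border-associated macrophages, and cells of 2 classes were set aside as mixed. These values were set after seeing the data. Of 262 listed symbols 21 had no match.

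UMIs were summed per class and library and scaled to CPM. Intervals were exact Poisson (levels), Clopper-Pearson (shares) and conditional binomial (ratios), and a member was measured at 20 UMIs. Thinning used 4100 UMIs, set from the low tail of depth of microglia in the shallower library. No doublet caller was run; mixed cells were set aside and the deepest 5% left out as an alternative. Leiden clusters were made in scanpy 1.11.5. Ratio intervals, thinning and the Poisson share were tested on simulated data.

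The members and lists were chosen with earlier results of these data known. Named were all members, from each other list the 2 genes of highest level and the 2 of largest ratio (at least 100 UMIs and 20 CPM in a library), and the 12 genes most enriched in the top 1% of cells (at least 10 UMIs there per library).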

Additional observations from a re-analysis of the deposited data

How the results depend on the processing

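No paired analysis was possible because each group has 1 library. Ratios were recomputed with stricter or no cell filters, clusters in place of the gate, other scalings, per-cell means, thinned cells, without the deepest 5% of cells, without cycling cells and without the top 1% by the 9 genes or by the gene itself, and, added after the data were seen, without the top 1% by the 7 genes, without the 10 strongest cells, without Cd74-rich cells and over every kept cell. Rtp4 lay between -0.82 and -0.57, Mx1 between -1.17 and -0.39, Isg15 between -1.61 and -0.31 and Ifit3 between -3.04 and -1.45. Irf7 (-0.39 to 0.43) and Oas1a (-0.71 to 0.15) took either sign. The ratio of the 7 members was -0.67 without the deepest 5% of cells, -1.04 without cycling cells and -0.64 without the 10 strongest. The 9-gene sum was -0.10 without cycling cells and -0.12 without Bst2 and Ifitm3, a planned exclusion that left Ifi47 dominant. The median was -0.45 over members with at least 100 UMIs. Thinned to 2000 UMIs, 55.8% of dexamethasone and 56.4% of control microglia held a member UMI. Thinned to 4100 UMIs, the top 1% held 4.50% and 5.86% of member UMIs, against 4.96% and 6.64% unthinned. Without the top 1% by the gene itself, Irf7, Ifit3 and Ifitm3 had no UMI left and no value, and Ifitm3 thinned had none in dexamethasone. The cause of these movements was not tested. Depth limits Irf7, Ifit3, Oas1a and Ifitm3, with 105 UMIs or fewer per library in microglia.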
